A study of Homo sapiens with 6 samples.

Results

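Retinoic acid acts through a small family of nuclear receptors, and the transcripts of that family were followed here in K562 cells across siRNA and all-trans retinoic acid (ATRA) treatment. The genes are the retinoic acid receptors RARA, RARB and RARG, the retinoid X receptors RXRA, RXRB and RXRG, and the corepressors NCOR1 and NRIP1. Every probe set that the platform annotation pairs with one of these genes alone was taken, which gave 21 of the 54675 probe sets on the array and 7 of the 8 genes. RARA and RARB have 5 probe sets each, RARG and RXRB 3 each, RXRA and NRIP1 2 each, and RXRG 1. Array values of NCOR1 were not analysed here.

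K562 is a human leukaemia line derived from a chronic myeloid leukaemia, and all 6 arrays hold RNA of this line. The cells were nucleofected with an siRNA, which the labels name only as RNAi8, or with a scrambled RNA (scrRNA), each at up to 200 nM. After 24 hours they received ATRA or its solvent control DMSO. Each of 3 independent experiments gave a pair of arrays, one per RNA, so siRNA under ATRA and scrambled RNA under ATRA had 2 arrays each (experiments 1 and 3), and siRNA under DMSO and scrambled RNA under DMSO had 1 each (experiment 2). PRAME, the gene on which the series centres, encodes a cancer-testis antigen known to bind retinoic acid receptors and to repress their signalling.

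A retinoic acid receptor binds DNA as a heterodimer with a retinoid X receptor. Without ligand the pair holds corepressors such as NCOR1, which bring histone deacetylases to the target gene, and ligand exchanges them for coactivators. NRIP1, also called RIP140, is a corepressor of another kind, since it is recruited to receptors that carry an agonist and so dampens the response. RARA is the receptor best known from myeloid differentiation and from acute promyelocytic leukaemia, while RARB and CYP26A1 are classical target genes that carry a retinoic acid response element close to their start sites.

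That element is the part of the family's sequence on which the ATRA comparison bears, so the promoters were searched for it. The receptors bind pairs of a six-base half-site in direct repeat, and the half-sites searched were AGGTCA, then AGTTCA, then GGGTCA, then GGTTCA, on both strands, with 1, 2 or 5 bases between them. The windows, from RefSeq on GRCh38.p14, run from 250 bases before to 50 bases after a start site. All 8 genes were found in that table, with 18 windows. A repeat with 5 bases between was present in 1 of the 4 RARB windows and in 1 of the 2 windows of CYP26A1, the retinoic acid hydroxylase, against 31 of all 35116 windows (0.0883%). No other window of the 8 genes held a repeat of any of the 3 spacings, which were present in 0.131% (1 base) and 0.0399% (2 bases) of all windows. A match describes the letters and does not show a bound site. The matches are shown with 20 bases on either side, half-sites in capitals, each read 5′ to 3′ on the strand of its gene. The RARB match reads with the gene and lies 53 to 37 bases before the start site, at chr3:25428210-25428226 within the printed stretch chr3:25428190-25428246 on the plus strand. The CYP26A1 match reads against the gene and lies 90 to 74 bases before the start site, at chr10:93073803-93073819 within chr10:93073783-93073839 on the plus strand.
RARB: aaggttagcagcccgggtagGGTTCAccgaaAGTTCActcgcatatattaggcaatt
CYP26A1: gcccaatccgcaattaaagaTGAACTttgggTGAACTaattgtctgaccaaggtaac

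The arrays gave log2 expression values after the RMA algorithm, and their medians lay between 5.96 and 6.02. A probe set whose mean over the 6 arrays lies below the median of all values, 5.99, is called dim here, since it was not shown to be above background, and 9 of the 21 probe sets were dim. Identical deposited values on 2 or more arrays occurred in 6 of the 21 probe sets, against 34.0% of all, so some spreads below are 0. Experiment 3 stood apart from the rest. Its arrays correlated with the others at 0.979 to 0.982 across probe sets, against 0.996 or more among experiments 1 and 2, and its actin 3′ control probe set exceeded the 5′ one by 2.98 and 3.36 log2 units, against 0.63 to 0.92 elsewhere. Of 9 measured markers of erythroid and megakaryocytic cells, the lineage features of K562, all 9 were at or above the median, from 7.06 for ITGA2B to 13.34 for the transferrin receptor gene TFRC. PRAME itself stood at 12.10 to 12.14 on the siRNA arrays and at 12.70 or more on the scrambled arrays, and its change passed only with the experiment as a block (limma, adjusted p = 0.0435 with it and 1 without).

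Transcripts of RARA, the retinoic acid receptor of the promyelocytic leukaemia fusion, were measured above the dim range by 4 of its 5 probe sets. On 216300_x_at the signal was 7.66 on the siRNA array and 7.43 on the scrambled array of experiment 1 (ATRA), 7.66 and 7.66 in experiment 2 (DMSO), and 7.66 and 7.68 in experiment 3 (ATRA). Only the scrambled array of experiment 1 departs from the others there, and 4 of the 6 values are identical. The suffix _x_at marks a probe set that may hybridise with other transcripts. On 203750_s_at the values in the same order were 6.74 and 6.88, 6.99 and 6.81, and 6.57 and 6.70, with the DMSO siRNA array highest and both arrays of experiment 3 lowest. On 203749_s_at they were 6.28 and 5.98, 6.23 and 6.23, and 6.74 and 6.67, with both arrays of experiment 3 above all others. The fourth, 211605_s_at, ran from 6.14 to 6.35, with the ATRA and DMSO arrays overlapping and the siRNA array above the scrambled array of its experiment each time. The dim 1565358_at ran from 3.91 to 4.31. The probe sets of this gene therefore placed experiment 3 on different sides of the other experiments, above them on 203749_s_at and below them on 203750_s_at.

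RARB, the receptor whose own promoter carries the response element shown above, was dim on all 5 of its probe sets, each below the median of all values on every one of the 6 arrays. On 217020_at, the probe set of this gene with the highest mean, the signal was 5.78 with siRNA and 5.77 with scrambled RNA in experiment 1 (ATRA), 5.89 and 5.76 in experiment 2 (DMSO), and 5.90 and 5.56 in experiment 3 (ATRA). The ATRA arrays enclose the DMSO arrays there, and the highest value of any RARB probe set on any array was 5.90. The other 4 ranged from 5.62 to 5.90 (205080_at), 5.64 to 5.79 (208530_s_at), 5.12 to 5.54 (208412_s_at) and 3.81 to 4.30 (208413_at).

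RARG, the receptor linked to haematopoietic stem cell maintenance, was above the dim range on 2 of its 3 probe sets. On 204189_at the values were 6.91 and 6.90 (experiment 1, ATRA), 6.98 and 6.94 (experiment 2, DMSO) and 6.86 and 6.82 (experiment 3, ATRA). On 204188_s_at they were 6.08 and 6.20, 6.36 and 6.25, and 6.15 and 6.09. On both, each of the 4 ATRA arrays lay below both DMSO arrays. The dim 217178_at ran from 5.21 to 5.54.

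**Figure D1:**
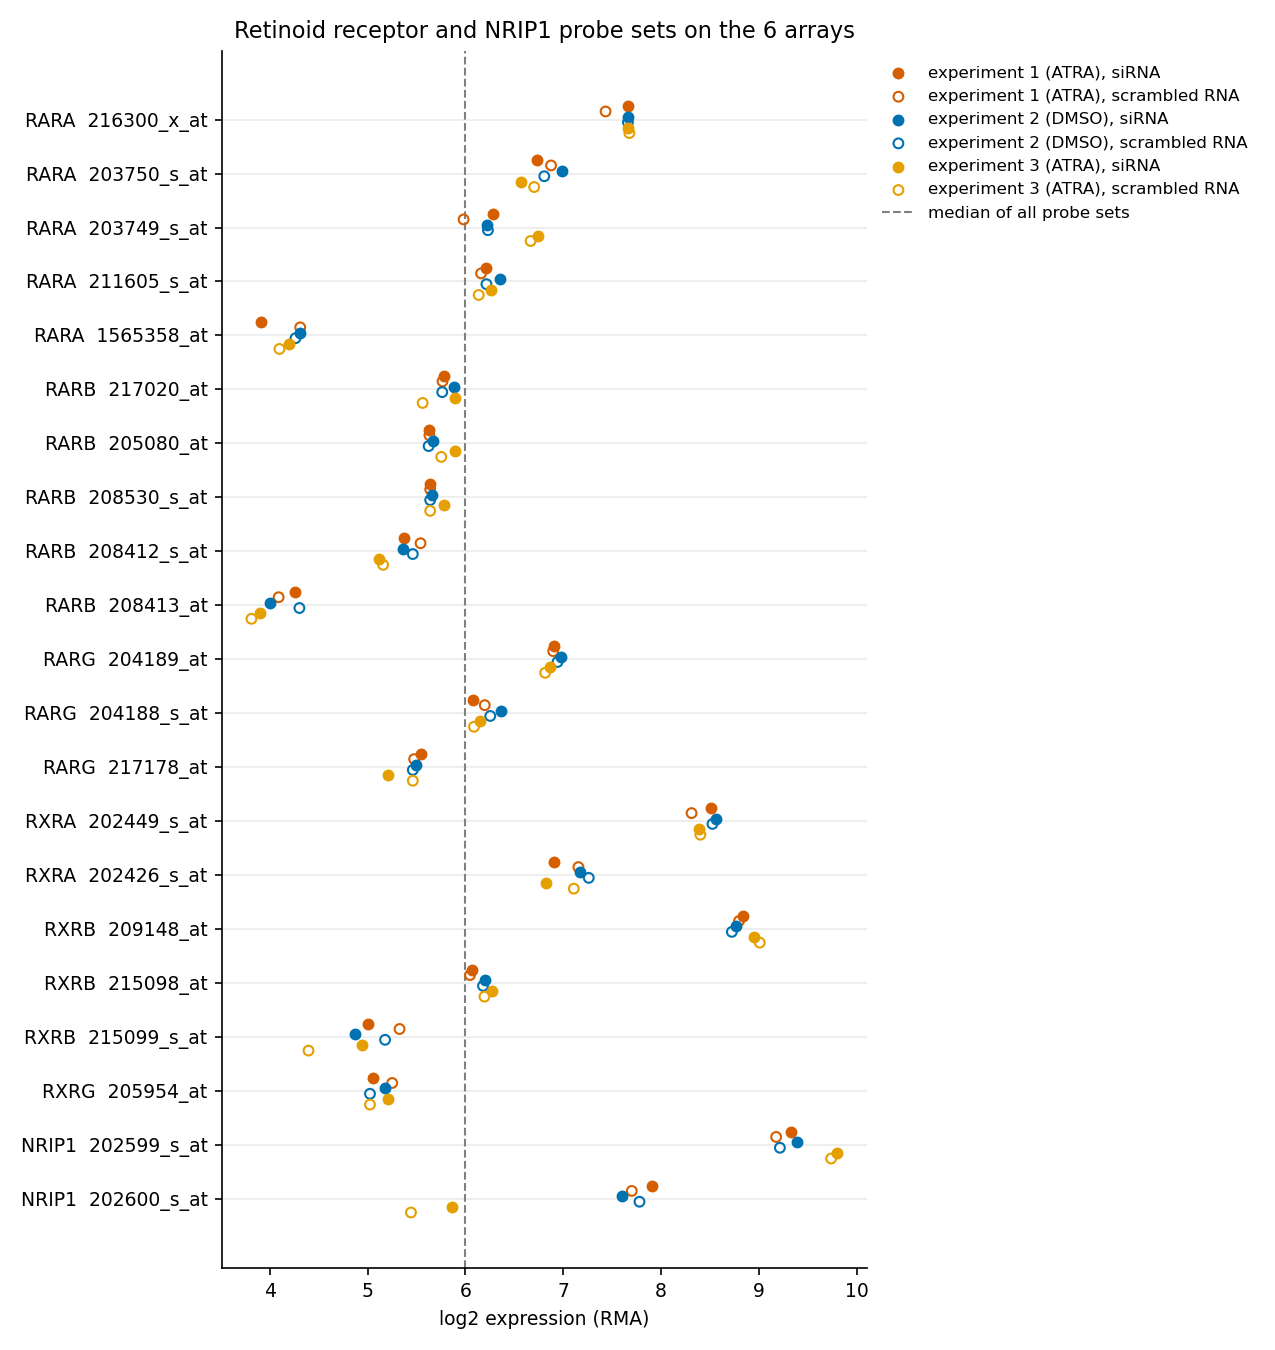
Log2 expression (RMA) of the 21 probe sets on the 6 arrays, with the colour giving the experiment and its treatment, filled circles the siRNA and open circles the scrambled RNA, and the dashed line the median of all values (5.99). All RARB circles lie left of the line, and NRIP1 202600_s_at is the only row that spans more than 1 log2 unit (5.44 to 7.91).

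Among the retinoid X receptors, which pair with the retinoic acid receptors, RXRA and RXRB were measured well above the dim range. RXRA 202449_s_at stood at 8.51 and 8.31 (experiment 1, ATRA, siRNA first), 8.56 and 8.53 (experiment 2, DMSO) and 8.39 and 8.40 (experiment 3, ATRA). RXRA 202426_s_at stood at 6.91 and 7.16, 7.18 and 7.26, and 6.82 and 7.11. As for RARG, the 4 ATRA arrays lay below both DMSO arrays on each probe set. RXRB 209148_at had the opposite order, at 8.84 and 8.80 under ATRA in experiment 1, 8.77 and 8.72 under DMSO, and 8.95 and 9.01 under ATRA in experiment 3. Its second probe set, 215098_at, ran from 6.05 to 6.27 with overlapping groups, and the dim 215099_s_at from 4.40 to 5.33. RXRG, which is best known from muscle and brain, was dim, at 5.02 to 5.25.

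NRIP1, the agonist-dependent corepressor, gave 2 opposite pictures. On 202599_s_at the signal was 9.33 with siRNA and 9.18 with scrambled RNA in experiment 1 (ATRA), 9.39 and 9.22 in experiment 2 (DMSO), and 9.80 and 9.74 in experiment 3 (ATRA). On 202600_s_at it was 7.91 and 7.70, then 7.60 and 7.78, and then 5.86 and 5.44. Experiment 3 was thus the highest on the first and the lowest on the second, where both of its arrays lay below the median of all values, while experiments 1 and 2 overlapped on both. Between the 2 ATRA experiments the first probe set differed by 0.52 and the second by -2.15 (experiment 3 minus experiment 1), a gap of 2.67 between probe sets of a single gene. Of 5798 genes with 2 or more probe sets above the dim range, 87 had a gap at least as large, and the median gap was 0.44. Between experiments 1 and 2 the NRIP1 gap was 0.16. The 3′ to 5′ control gaps of actin and GAPDH moved with this difference, and their part in it was not tested.

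**Figure D2:**
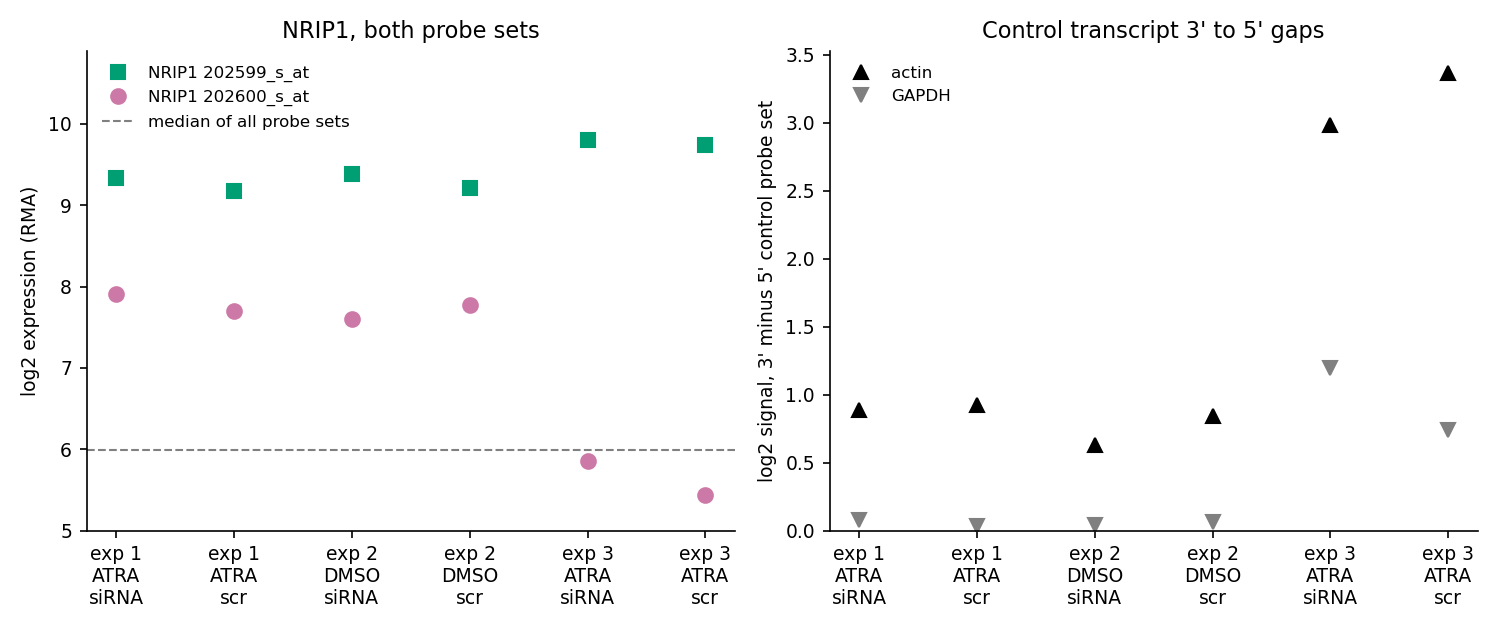
Left, log2 expression of the 2 NRIP1 probe sets on each array, with the dashed line at the median of all values. Right, log2 signal of the 3′ minus the 5′ control probe set for actin and GAPDH on the same arrays; in experiment 3 the actin gaps are 2.98 and 3.36 and NRIP1 202600_s_at lies at 5.86 and 5.44.

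Whether the siRNA changed the receptors was asked by comparing siRNA with scrambled RNA over the 3 experiments. No probe set of the 7 genes passed the test. The largest difference among the 21 was that of RXRA 202426_s_at, lower with the siRNA by 0.25, 0.09 and 0.29 log2 units in experiments 1 to 3. RARB 217020_at was higher by 0.02, 0.12 and 0.33, and NRIP1 202599_s_at by 0.15, 0.17 and 0.06. For RARA 216300_x_at the differences were 0.23, 0.00 and -0.01.

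The test was limma with treatment as a covariate and Benjamini-Hochberg adjustment over 54613 probe sets, and 0 of the 21 passed (0% of all). An unadjusted p below 0.05 was found for 0 of the 21 and for 1.20% of all probe sets. With the experiment as a block, which pairs each siRNA array with the scrambled array of its experiment, again 0 of 21 passed (0.00183% of all), and 2 had an unadjusted p below 0.05 (5.27% of all), RXRA 202426_s_at and NRIP1 202599_s_at. Signal per array is relative, so fewer cells with a transcript and less of it per cell cannot be told apart.

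RXRA 202426_s_at averaged 6.97 ± 0.18 (SD, n = 3) in siRNA cells and 7.18 ± 0.08 (SD, n = 3) in scrambled-RNA cells. Its difference was -0.21, and the 95% interval reached from -0.36 to -0.05 in the paired fit and from -0.43 to 0.01 in the unpaired one (limma, adjusted p = 0.872 and 1). The other RXRA probe set, 202449_s_at, pointed the other way at 0.07, with 8.49 ± 0.09 (SD, n = 3) against 8.41 ± 0.11 (SD, n = 3) and a blocked interval of -0.07 to 0.22. That difference is smaller than either SD, and the 2 probe sets give RXRA no common direction.

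For NRIP1 202599_s_at the means were 9.51 ± 0.26 (SD, n = 3) and 9.38 ± 0.31 (SD, n = 3). The difference of 0.13 had a blocked interval of 0.01 to 0.25 (limma, adjusted p = 0.872), and an unblocked one of -0.39 to 0.65. The second NRIP1 probe set differed by 0.21 in experiment 1, -0.18 in experiment 2 and 0.42 in experiment 3, a mean of 0.15 with a blocked interval of -0.10 to 0.39. RARB 217020_at was the 1 probe set of 21 whose siRNA arrays all lay above the scrambled arrays (2.07% of all probe sets), and 0 had the reverse order (1.65%). Its signal is dim, and its mean difference was 0.16 (blocked interval -0.03 to 0.35). The other RARB probe sets differed by 0.06, 0.05, -0.10 and -0.02 (205080_at, 208530_s_at, 208412_s_at and 208413_at).

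The RARA probe sets differed by 0.07, -0.03, 0.12, 0.11 and -0.09 in the order given above, and the blocked interval of 216300_x_at ran from -0.09 to 0.23. For RARG 204189_at the difference was 0.03 (-0.11 to 0.17 with the block), for RXRB 209148_at 0.01 (-0.12 to 0.13) and for RXRG 0.05 (-0.16 to 0.26). The intervals cover the sizes compatible with the 3 pairs of arrays, and a p that misses the threshold does not show that the transcripts were equal. In all, 14 of the 21 differences were above 0, against 28495 of all 54613 probe sets. The 21 belong to 7 genes, so they are not independent counts. Their median was 0.04 against 0.00 over all probe sets, and the median size was 0.06 in both. When the arrays were centred on the hybridization spike-ins, 11 of 21 were above 0, and the median over all probe sets was -0.03. Higher values with the siRNA in all 3 experiments were found for 5 of the 21 probe sets (12.3% of all), namely RARA 211605_s_at, RARB 217020_at, RARG 204189_at, RXRB 215098_at and NRIP1 202599_s_at. Lower values in all 3 were found for 2 (11.3% of all), RARB 208412_s_at and RXRA 202426_s_at.

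**Figure D3:**
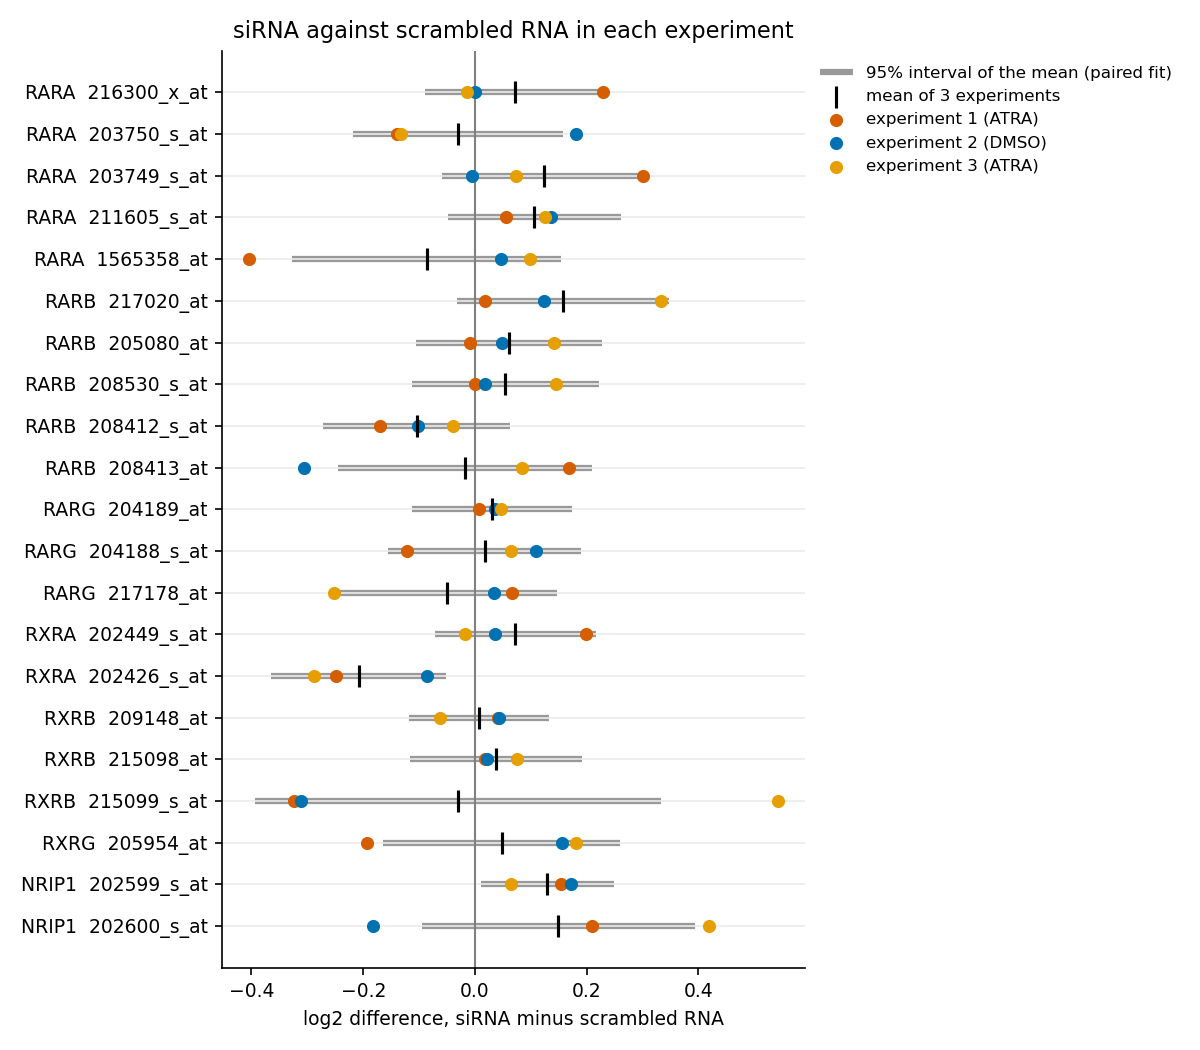
Log2 difference between the siRNA and the scrambled array of each experiment (coloured points) for the 21 probe sets, with the mean of the 3 experiments (black tick) and its 95% interval from the paired fit (grey bar). The intervals of RXRA 202426_s_at (-0.36 to -0.05) and NRIP1 202599_s_at (0.01 to 0.25) do not include 0, and neither passed after adjustment over all probe sets.

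Within the ATRA-treated cells of experiments 1 and 3 alone, 0 of the 21 probe sets passed in a fit of the 4 groups, where 0% of all probe sets passed, and 0 of 21 with the block (0% of all). Without the block 0 of 21 had an unadjusted p below 0.05 (0.936% of all). RXRA 202426_s_at was lower with the siRNA by 0.27 (blocked interval -0.46 to -0.07, unblocked -0.58 to 0.04). NRIP1 202600_s_at was higher by 0.31 (blocked 0.09 to 0.53, unblocked -2.91 to 3.54). These were the 2 with an unadjusted p below 0.05 in the blocked fit (4.89% of all).

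Whether ATRA altered the receptors' own transcripts was asked by comparing the 2 ATRA experiments with the DMSO experiment. No probe set of the 7 genes passed the test. In experiment 1, whose control gaps were like those of the DMSO experiment, every one of the 21 differences was smaller than 0.2 log2 units, the largest being RXRA 202426_s_at at -0.19. In the same pair of experiments CYP26A1, whose promoter carries the repeat in common with RARB, went from 5.74 under DMSO, which is dim, to 11.33 under ATRA, a difference in signal of 5.60.

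RARB 217020_at stood at 5.82 under DMSO and at 5.77 and 5.73 under ATRA, which is -0.07 in the mean (95% interval -0.40 to 0.26) in signal that was dim throughout. Its other probe sets differed by 0.08, 0.03, -0.11 and -0.14, and between experiments 1 and 2 the RARB differences lay between -0.05 and 0.04. CYP26A1 differed by 5.94 ± 0.43 (SE; 2 ATRA experiments, 1 DMSO experiment) and also missed the test on experiment means (limma, adjusted p = 0.995). It passed in a limma fit of the 6 single arrays with a random block for experiment (adjusted p = 0.0412), a fit in which both arrays of an experiment partly count as replicates. Of the 29 genes with the 5-base repeat in a promoter window, 15 had a probe set of their own. CYP26A1 was the 1 among these 15 that was at least 0.5 higher in experiment 1 than in experiment 2 (0.460% of 19775 genes). It was known beforehand as an induced gene with the element, so this count cannot show whether the repeat goes with induction. After CYP26A1 in the mean of both ATRA experiments came PANK2, a pantothenate kinase, at 0.05 in experiment 1 and 0.48 in experiment 3. The lowest was CFLAR, an inhibitor of caspase-8 activation, at -0.35 and -0.59.

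**Figure D4:**
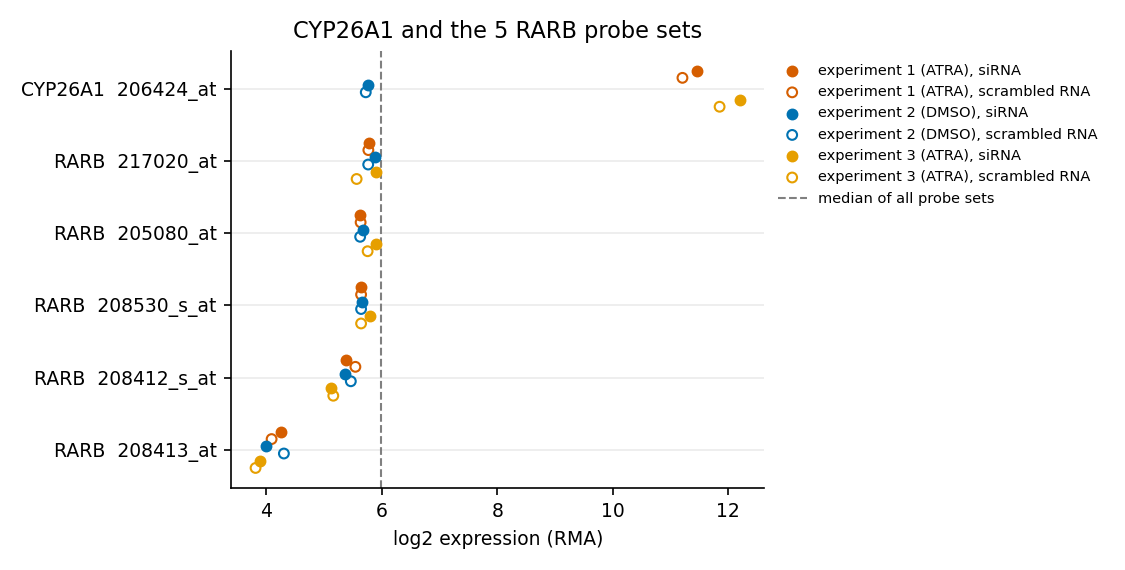
Log2 expression of CYP26A1 and of the 5 RARB probe sets on each array; colours give the experiment and its treatment, filled circles the siRNA, open circles the scrambled RNA, and the dashed line the median of all values. CYP26A1 lies near 5.74 under DMSO and between 11.21 and 12.21 under ATRA, while every RARB value is at or below 5.90.

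Both ATRA experiment means lay below the DMSO mean for 8 of 21 probe sets (36.0% of all), namely RARA 203750_s_at, 211605_s_at and 1565358_at, RARB 217020_at, RARG 204189_at and 204188_s_at, and both RXRA probe sets. They lay above it for 2 (29.9%), RXRB 209148_at and RXRG. RARG 204188_s_at differed by -0.17 in experiment 1 and -0.19 in experiment 3, and RARG 204189_at by -0.06 and -0.12. RXRA 202449_s_at differed by -0.13 and -0.15, and RXRA 202426_s_at by -0.19 and -0.25. RXRB 209148_at differed by 0.07 and 0.23. These were the 5 of 21 probe sets on which all 4 ATRA arrays lay on one side of both DMSO arrays (22.9% of all probe sets), a share close to the background. For RXRA 202426_s_at the mean difference of -0.22 had a 95% interval of -0.77 to 0.33, and for RXRB 209148_at that of 0.15 ran from -0.65 to 0.95 (limma on experiment means, adjusted p = 0.995 each).

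Above DMSO in experiment 1 were 26138 of all 54613 probe sets and 7 of the 21. All 5 RARA probe sets, which measure 1 gene on the same arrays, were below DMSO there, and 3 of them also in experiment 3. Those 3 differed by -0.09 and -0.26 (203750_s_at), by -0.10 and -0.08 (211605_s_at) and by -0.18 and -0.14 (1565358_at, dim) in experiments 1 and 3. RARA 203749_s_at differed by -0.10 and 0.48, and 216300_x_at by -0.11 and 0.01, with the sign turned in experiment 3. NRIP1 202599_s_at differed by -0.05 and 0.47 and 202600_s_at by 0.12 and -2.04. RXRG differed by 0.05 and 0.01. The test on experiment means called 0 of 21 probe sets (0% of all; 0 and 0.835% at an unadjusted p below 0.05), and the random block 0 of 21 (0.00366% of all; 0 and 1.60% unadjusted). Experiment 1 against experiment 2 alone, judged by the spread within experiments, called 0 of 21 (0.375% of all). Experiment 3 against experiment 2 alone called 4 of 21, against 29.7% of all, namely RARA 203749_s_at, RXRB 209148_at and both NRIP1 probe sets. The arrays of experiment 3 had the larger control gaps, and the part of these in the 4 calls was not tested.

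**Figure D5:**
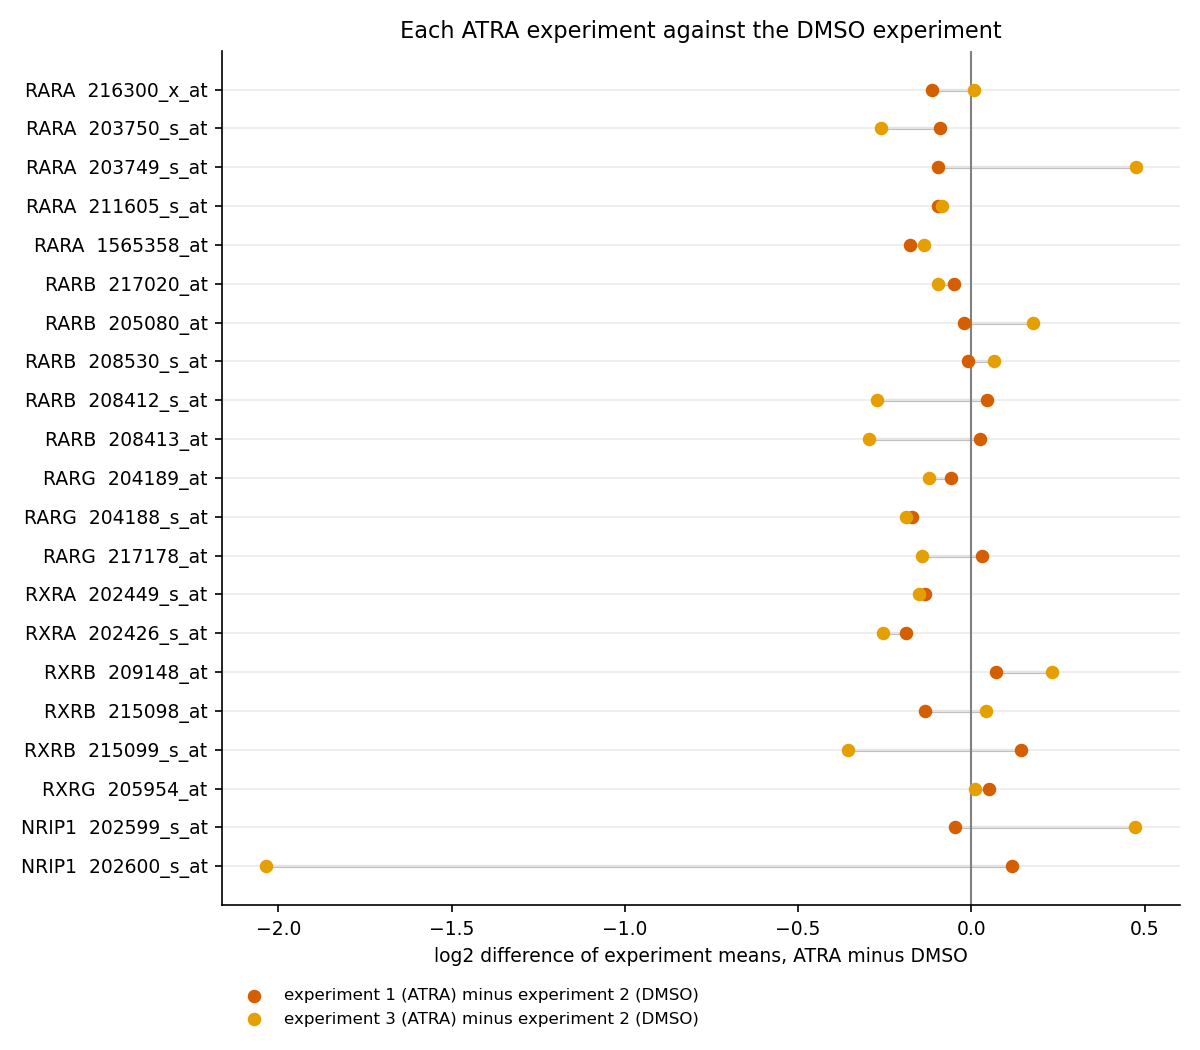
Log2 difference between the mean of each ATRA experiment and the mean of the DMSO experiment for the 21 probe sets. Differences of experiment 1 lie between -0.19 and 0.14, while those of experiment 3 reach -2.04 for NRIP1 202600_s_at and 0.48 for RARA 203749_s_at.

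Whether ATRA altered the siRNA effect was tested as an interaction, the siRNA difference in ATRA-treated cells minus that in DMSO-treated cells. The sign in both ATRA experiments was opposite to that under DMSO for 4 of the 21 probe sets (22.6% of all). No probe set of the 7 genes passed (0 of 21, 0% of all, with or without the block). With the block 2 of 21 had an unadjusted p below 0.05 (2.80% of all), the dim RARB 208413_at at 0.43 (95% interval 0.05 to 0.81) and NRIP1 202600_s_at at 0.50 (0.12 to 0.88). Without the block 0 of 21 had such a p (1.29% of all), and the intervals were -0.44 to 1.30 and -5.09 to 6.08. RARA 216300_x_at differed by 0.11 (-0.61 to 0.82 without the block), and RXRA 202426_s_at by -0.18 (-0.72 to 0.35).

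The proteins that work with these receptors were followed by lists, each gene at its probe set with the highest mean. In the tests over all experiments, PRAME (siRNA, with the block) and CYP26A1 (ATRA, with the random block) were the list genes that passed. Judged by the spread within experiments, SKIL, DHRS3 and CYP26A1 also passed in experiment 1 against experiment 2. These were 1 of 19 corepressor genes and 2 of 16 induced genes. The shares that passed were 0.375% of all probe sets and 0.643% of those above the dim range. Treatment and experiment cannot be separated in this comparison. In experiment 3 against experiment 2, 29.7% of all probe sets passed, and 47.7% of those above the dim range, where most list genes lie. There 11 of 19 corepressor genes, 7 of 12 coactivators and 7 of 14 receptors that share RXR passed. So did 4 of 16 induced genes and 4 of 7 genes of the PRAME list. Of 19 measured genes of corepressor complexes and histone deacetylases, all were above the dim range. The siRNA value was higher for 11 and lower for 8, against 10466 and 9309 of all 19775 genes. No gene of the list passed, and the median difference was 0.02 against 0.01 over all genes. BCL6, a repressor that recruits the NCOR proteins, was lower by 0.15, 0.33 and 0.27 (blocked SE 0.07, limma adjusted p = 0.872). HDAC2, a histone deacetylase, was higher by 0.09, 0.02 and 0.24. SKI, which binds the NCOR complex, was lower by 0.04, 0.06 and 0.25. COPS2, a signalosome subunit known also as a thyroid receptor corepressor, was higher by 0.04, 0.01 and 0.22. Under ATRA 11 of the 19 were higher and 1 was lower than DMSO in both experiments (31.6% and 36.5% of all genes), with LCOR, a ligand-dependent corepressor, at 0.36 and 0.43 and SKIL, a relative of SKI, at 0.44 and 0.07 in experiments 1 and 3. HDAC2 differed by 0.08 and 0.51, and HDAC4 by -0.04 and 0.85. Without experiment 3, 12 of the 19 were above DMSO with a median of 0.03, against 16 and a median of 0.18 for the mean of both. Over all 19775 genes, 9116 were above DMSO without experiment 3 and 9452 in the mean of both, each with a median of -0.01. Experiment 3 had the larger control gaps, whose part in the corepressor counts was not tested.

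Of 12 measured coactivators, 6 were higher and 6 lower with the siRNA (10466 and 9309 of all 19775 genes) and 0 passed. PRMT1, an arginine methyltransferase, was higher by 0.06, 0.08 and 0.09. The means over the 3 experiments were 0.08 for NCOA6, 0.09 for NCOA1 and -0.13 for MED1, the Mediator subunit that binds liganded receptors. Under ATRA 5 of the 12 were higher and 2 lower than DMSO in both experiments (31.6% and 36.5% of all genes). NCOA2 differed by 0.24 and 1.09, NCOA1 by 0.14 and 0.63, PRMT1 by -0.16 and -0.39 and MED1 by 0.10 and -1.87. The coactivator differences were again wider in experiment 3.

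Of 14 measured receptors that share RXR or its binding sites, 5 were higher and 9 lower with the siRNA and 0 passed. Of all 19775 genes, 10466 were higher and 9309 lower. THRB, a thyroid hormone receptor, was lower by 0.28, 0.11 and 0.13, and NR4A1, an orphan receptor that can pair with RXR, by 0.16, 0.06 and 0.18. PPARA was lower by 0.12, 0.05 and 0.08, and NR2C1, the orphan receptor TR2, was higher by 0.07, 0.05 and 0.15. Under ATRA 7 of the 14 were higher and 5 lower than DMSO in both experiments (31.6% and 36.5% of all genes). The median of experiment 1 minus experiment 2 was -0.01. NR2C1 differed by 0.33 and 0.82, NR2C2, its relative TR4, by 0.30 and 0.23, NR2F6 by 0.23 and 0.50, and PPARD by 0.18 and 0.51. The oxysterol receptor gene NR1H3, singled out after its values were seen, differed by -0.05 and -0.72.

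Of 16 measured genes that retinoic acid is known to induce, the siRNA value was higher for 8 and lower for 8. Of all 19775 genes, 10466 were higher and 9309 lower. Both ATRA experiments lay above DMSO for 5 of the 16 and below it for 8 (31.6% and 36.5% of all genes). Besides CYP26A1, DHRS3, the retinaldehyde reductase, differed by 1.07 and 1.40 and HOXB4 by 0.24 and 0.42 under ATRA, while CRABP2, a retinoic acid carrier, differed by -0.16 and -0.24. With the siRNA, CYP26A1 was higher by 0.25, 0.03 and 0.36 and ICAM1 by 0.16, 0.23 and 0.12 (limma with the block, adjusted p = 0.872 each). CYP26B1 was at 0.02, 0.18 and 0.16, and TGM2 at -0.23, -0.07 and -0.05. Of PRAME and the 6 measured genes for its Polycomb and CUL2 ligase partners, 1 passed as lower with the block, PRAME itself. CUL2, the scaffold of the ligase, differed by 0.10 in the mean of the 3 experiments, ELOB by -0.08 and ELOC by -0.12.

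Among the 7 genes, NRIP1 202599_s_at was the 1 probe set above the dim range and highest for its gene that spanned at least 0.5 log2 units over the arrays (0.63). The genes closest to it among 12874, by the root mean square difference of centred log2 values over the 6 arrays, were ACTR5 (0.028), CDK6 (0.029) and REXO4 (0.032). All 3 were highest on both arrays of experiment 3, which follows from choosing them by likeness to NRIP1 202599_s_at. The other NRIP1 probe set, 202600_s_at, was lowest there (5.86 and 5.44). The larger control gaps of experiment 3 may bear on this, and their part was not tested.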

How the data were processed

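Expression in K562 cells was read from 6 HG-U133 Plus 2.0 arrays (Affymetrix). The deposited values are log2 expression per probe set after RMA, which the authors applied in BRB-ArrayTools according to the series' design text, with the version and settings not given in the sources used here. RMA summarises a probe set from all its probes, so a change in part of a transcript can be missed.

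Control probe sets (62) were left out, and 54613 probe sets were tested with limma 3.58.1 in R 4.3.3 (intensity trend, Benjamini-Hochberg over all of them, threshold 0.05). The siRNA test had treatment as a covariate, 3 residual degrees of freedom, and 2 with the experiment as a block. The 4-group fit had 2, and 1 with the block, with each DMSO group a single array assumed to vary like the others. The blocked intervals within ATRA and of the interaction rest on that 1. ATRA against DMSO on experiment means had 1. Genes were named by the platform annotation (41091 probe sets with 1 gene, 1801 with several, 11721 unnamed), and lists by 1 probe set per gene. The random block had a correlation of 0.497.

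Experiment numbers mark independent experiments in the labels, and they were used to pair the samples. Same-numbered arrays deviated together (r = 0.703, 0.772 and 0.879 for deviations from the siRNA and scrambled means). Arrays of experiments 1 and 2 also did so across numbers (r = 0.594 and 0.530), so these values mainly set experiment 3 apart. The members and lists were chosen with earlier results of these data known. Named list genes were up to 4 per list and comparison by smallest p above the dim range, with PRAME and CYP26A1 in any case. For likeness, the 3 closest genes were named for each such receptor or corepressor gene spanning at least 0.5 log2 units. The search for other genes with the promoter repeat was added after the data were examined. Intervals are 95%, and the number of arrays limits precision.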

Additional observations from a re-analysis of the deposited data

Results flagged for a closer look

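On 4 probe sets the siRNA difference had one sign in both ATRA experiments and the other sign under DMSO (22.6% of all probe sets had such a pattern). The difference between the effects, ATRA minus DMSO, was -0.32 for RARA 203750_s_at, 0.19 for RARA 203749_s_at, 0.43 for RARB 208413_at and 0.50 for NRIP1 202600_s_at. Each was tested by the interaction term in limma, and each had an adjusted p of 1 with and without the block. RARB 208413_at is dim.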

How the results depend on the processing

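The count of 0 probe sets past the threshold held under all 21 alternatives of the siRNA comparison, all 14 within ATRA and all 12 for the difference of siRNA effects, with the experiment as a replicate block among them. For ATRA against DMSO it held under 12 of 13. Experiment 3 against experiment 2 alone gave 4, in a setting where 29.7% of all probe sets passed. They were RARA 203749_s_at at 0.48, RXRB 209148_at at 0.23, NRIP1 202599_s_at at 0.47 and NRIP1 202600_s_at at -2.04.

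For the probe set with the highest mean of each gene, the siRNA difference changed sign in 20 of 145 alternative values, none larger than 0.07 in size. Averaging all probe sets of a gene turned RXRA to -0.07, and centring on the spike-ins turned RXRB to -0.02. Leaving out samples gave -0.01 to 0.13 for RARA, 0.07 to 0.23 for RARB (0.07 without experiment 3, 0.09 without its scrambled array), 0.01 to 0.05 for RARG (0.01 without the scrambled array of experiment 3), 0.01 to 0.12 for RXRA (0.01 without experiment 1, 0.12 without experiment 3), -0.05 to 0.07 for RXRB, -0.02 to 0.17 for RXRG and -0.03 to 0.30 for NRIP1. With the replicate block, leaving out experiment 1 or 3 gave the same fits as without it, since treatment and experiment then coincide. RARA and RXRB were again -0.01 without experiment 1, and RXRG was again -0.02 without experiment 3. These repeated fits are counted among the 21 alternatives and the 145 values. The ATRA difference changed sign in 5 of 89. NRIP1 was -0.37 as the mean of its probe sets and -0.05 in experiment 1 alone, RARA 0.01 in experiment 3 alone, and RXRG -0.09 centred on the spike-ins and -0.05 with the siRNA arrays alone. Centring on the spike-ins moved the median of all ATRA differences by -0.12. The cause of these changes was not tested. The random block could not be fitted to the 4 groups, nor could these lose experiment 1 or 3.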

Other observations

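Markers of other cell types gave the following levels on these arrays. Of 10 granulocyte and monocyte markers 4 were above the dim range, with lysozyme (LYZ) at 9.73 and MPO, ELANE and CD14 between 4.76 and 5.18. For T and NK lymphocytes 2 of 8 were above it, for B lymphocytes 2 of 4, for stroma 2 of 5 and for epithelium 3 of 5, the last led by the keratin gene KRT19 at 10.34. The summed log2 level of the granulocyte and monocyte list lay between 58.35 and 58.64 with the siRNA and between 58.13 and 58.50 with scrambled RNA.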
